A study of Mus musculus with 10 samples.

Results

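The genes described here encode the proteins of the cytosolic ribosome. They were taken by symbol: names beginning Rpl or Rps with a number and an optional letter or l, together with Rplp0, Rplp1, Rplp2 and Rpsa, leaving out pseudogenes and the S6 kinases, whose symbols also begin with Rps. This gave 82 genes of the 23382 NCBI gene identifiers in the count table, 51 of the large subunit (Rpl) and 31 of the small subunit (Rps), and 79 of them had enough counts to be tested. Expression was measured by bulk RNA-seq in 10 libraries of peritoneal macrophages that were elicited with thioglycollate in C57BL/6 mice aged 8 weeks. The 5 control libraries are labelled untreated. The 5 ox-LDL libraries came from cells primed with LPS at 100 ng/ml and then exposed for 16 h to ox-LDL, oxidized low-density lipoprotein, at 100 µg/ml. Such lipoprotein is known to load macrophages with lipid. Whether the control cells were also primed with LPS is left unclear by the written description of the experiment. By the labels a difference between the groups holds both LPS and ox-LDL, which cannot be told apart.

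A ribosome is built from ribosomal RNA and one copy of most ribosomal proteins, so cells make these proteins in matched amounts. Their messenger RNAs are short, abundant and stable, and many begin with a 5′ terminal oligopyrimidine (TOP) tract, a C followed by further pyrimidines, through which mTOR signalling and the binding protein Larp1 set how much of each message is translated. The amount of message and its translation are therefore separate layers, and RNA-seq measures only the amount. Ribosomal protein genes have also given rise to very many processed pseudogenes, intronless copies pasted back into the genome, with which their reads can be shared, and several of them carry small nucleolar RNAs in their introns. In activated macrophages Rpl13a has a further role, since after interferon-gamma it leaves the ribosome and joins the GAIT complex, which silences the translation of inflammatory messages.

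The TOP tract is shown because it is the sequence feature by which this family is translated together. Windows of 30 bases centred on the annotated transcription start, 15 on each side, were available for 62 of the 82 genes from RefSeq (GRCm38.p6). A run of at least 5 pyrimidines that began with C exactly at the annotated start was found for 14 of the 62 genes (22.6%), against 3.01% of 27025 genes with such a window and 0 of 69 mitochondrial ribosomal protein genes. Where the run could start within 5 bases of the annotated start, 29 of the 62 genes held one (46.8%), against 21.2% of all genes and 17 of the 69 mitochondrial ribosomal protein genes (24.6%), so that the count depended on how exactly the start was annotated. The strand shown is that of the gene, and the capitals mark the pyrimidine run.
Rps6 (chr4:86857353-86857382, minus strand): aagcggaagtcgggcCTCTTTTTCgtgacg
Rpl15 (chr14:18270972-18271001, minus strand): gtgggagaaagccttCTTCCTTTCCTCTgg
Rpl35 (chr2:39005117-39005146, minus strand): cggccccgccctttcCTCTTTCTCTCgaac
Rps15a (chr7:118116133-118116162, minus strand): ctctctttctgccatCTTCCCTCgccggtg
Rplp2 (chr7:141447636-141447665, plus strand): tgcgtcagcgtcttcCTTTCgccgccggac
Rpl31 (chr1:39367836-39367865, plus strand): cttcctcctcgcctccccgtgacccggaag
Rpl24 (chr16:55966260-55966289, plus strand): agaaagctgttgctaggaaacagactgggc
The first 5 genes held the run at the start. Rpl31 and Rpl24, which stood apart in expression from the other ribosomal protein genes, did not hold it at the annotated start, which says only that these letters were not there. Rpl31 did hold a run that began within 5 bases upstream of the start, so the looser rule counts it, whereas Rpl24 did not.

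Ribosomal protein genes were among the most abundant messages of these macrophages. On the length-scaled FPKM values deposited per library, which allow levels of different genes to be compared, the median ribosomal protein gene was at 1293 in control and 1047 in ox-LDL, whereas the median tested gene was at 5.97. The mean FPKM over the 10 libraries was above 1000 for 45 genes and below 100 for 9. The highest was Rpl41, which encodes a very small basic peptide at the subunit interface, with an FPKM of 4575 in control and 3467 in ox-LDL. It was followed by Rpl23a, a protein at the exit of the peptide tunnel, and by Rplp1, an acidic protein of the stalk that recruits elongation factors. At the other end were 3 genes that did not reach the minimum for testing, Rpl3l with 0 to 11 counts per library, Rpl10l with 0 or 1 and Rpl32l with 0 to 4. Rpl3l is known as a paralog of striated muscle and Rpl10l as one of the male germ line.

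The low levels of a few genes went with identical intronless matches in the genome. A match without introns of at least 90% identity over at least 90% of the coding sequence was found in mm9 for 76 of the 80 genes with a coding sequence, up to 79 matches for Rpl21. A match of 100% identity over at least 90% of the coding sequence was found for 22 of the 79 tested genes, whose median FPKM was 625 against 1295 for the others. A gene's own locus was not left out, so a coding sequence within 1 exon can match itself. Rpl39l had only 1 match, which may be its own locus. All 6 tested genes below an FPKM of 100 had such a match, namely Rps6, Rpl27a, Rpl31, Rps13, Rpl10a and Rpl39l. How the authors counted reads that fit more than one place is not given in the sources used here. The levels of these 6 genes, and of the others among the 22, are therefore uncertain. The S6 kinase substrate Rps6, for example, had an FPKM of 31.7 in control and 26.3 in ox-LDL, whereas Rps3 of the same subunit had 483 in control and 392 in ox-LDL.

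The paralogs kept a fixed order in every library. Rps27, Rpl36a, Rpl36al and Rpl39l are among the genes with an identical intronless match, so these levels are uncertain in the same way. On the FPKM scale Rps27l, a paralog of Rps27 known as a p53 target, stood at 292, 253, 232, 285 and 199.6 in control 1 to 5 and 137, 476, 148, 125 and 156 in ox-LDL 1 to 5. Its parent Rps27 stood at 3718, 2315, 2040.4, 3543 and 2671 in control 1 to 5 and 1337, 5494, 1366, 1121 and 1717 in ox-LDL 1 to 5, above the paralog in every library. Rpl36al had 517, 462, 433, 552 and 367 in control 1 to 5 and 334, 852, 338, 329 and 340.1 in ox-LDL 1 to 5, against 425, 364, 283, 367 and 280.2 in control 1 to 5 and 205, 486, 210.4, 172 and 178 in ox-LDL 1 to 5 for Rpl36a, and the paralog was the higher of the pair in all 10 libraries. Rpl39l, a paralog best known from the testis, had 0.37 to 2.31, while Rpl39, which lines the peptide exit tunnel, had 445.4 to 1646.

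The libraries held 19257131 to 20687289 counts, so depth was nearly even. The 5 control libraries and the 5 ox-LDL libraries are biological replicates by the series' design text. ox-LDL replicate 2 stood apart: its TMM factor, which corrects a library for its makeup, was 0.593 against 0.837 to 1.19 in the others, and short genes were high in it. Results for the family and counts for gene lists are therefore given with all 10 libraries and without ox-LDL replicate 2. Among the markers of the labelled cell type, all 9 macrophage genes were tested. Adgre1 (2.07) and Cd14 (2.24) were higher in ox-LDL and Mrc1 (-2.24) was lower on the log2 scale. At an edgeR adjusted p below 0.01, 2 of the 9 were higher and 1 lower, against 9.4% and 5.35% of all genes. Without ox-LDL replicate 2, 3 were higher and 2 lower, against 13.5% and 11.6%. The summed level of the list, most of it from Lyz2, was 19751 to 46898 CPM in control against 12509.7 to 47939.6 CPM in ox-LDL.

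The share of all counts that fell on ribosomal protein genes was lower in 4 of the 5 ox-LDL libraries than in every control, and higher than in every control in the other one. It was 7.58%, 5.62%, 5.30%, 6.75% and 4.76% in control 1 to 5, and 3.67%, 9.93%, 3.77%, 3.46% and 3.33% in ox-LDL 1 to 5. The mean was 6.00% ± 1.14 (SD, n = 5) in control and 4.83% ± 2.86 (SD, n = 5) in ox-LDL, with the SD of ox-LDL arising mainly from replicate 2, whose share was 2.79 times the mean of the other 4. Without it the ox-LDL share was 3.56% ± 0.202 (SD, n = 4). Large and small subunit genes showed the same order of libraries, with 2.88% to 4.57% of counts on Rpl genes in control and 2.09% to 2.33% in ox-LDL without replicate 2, where that library had 6.04%. Mitochondrial ribosomal proteins, which serve a separate ribosome and are encoded by longer genes, held 0.298% to 0.369% of counts in control, 0.240% to 0.285% in 4 ox-LDL libraries and 0.519% in ox-LDL replicate 2. In bulk RNA a change in the share of cells that express these genes and a change in the amount per cell cannot be told apart.

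**Figure D1:**
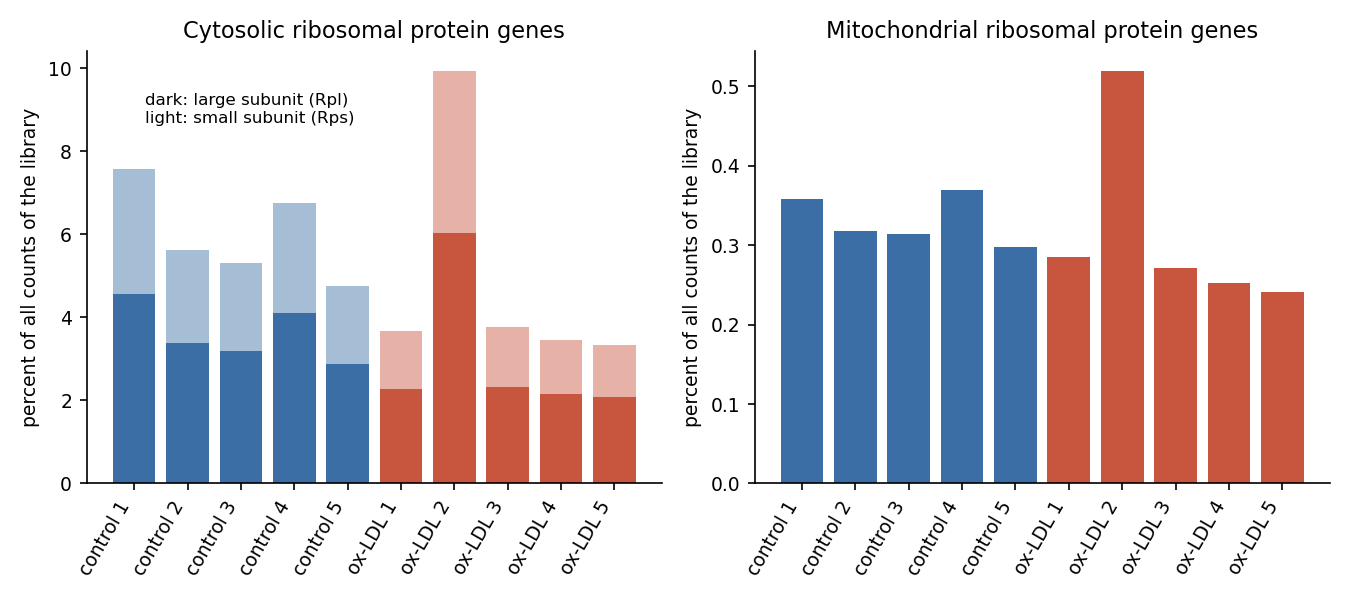
Bars give the percent of all counts of each library that fell on cytosolic (left) and mitochondrial (right) ribosomal protein genes, for control 1 to 5 (blue) and ox-LDL 1 to 5 (red), with dark and light parts of the left bars for the large and the small subunit. The ox-LDL bars on the left lie at 3.33% to 3.77%, under the lowest control at 4.76%, except replicate 2 at 9.93%.

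With all 10 libraries, no ribosomal protein gene passed the test. Of the 79 genes, 0 had an adjusted p below 0.01 by edgeR's quasi-likelihood test, against 14.7% of all 12654 genes tested, of which 1189 (9.4%) were higher and 677 (5.35%) lower in ox-LDL. By limma-voom the count was also 0 of 79. By DESeq2 it was 0 of the 70 genes that received an adjusted p, of 82 fitted. An unadjusted p below 0.05 was reached by 2 of the 79 genes in edgeR. The median log2 fold change of the 79 genes (ox-LDL over control) was 0.06, against 0.10 for all genes, and the values ran from -1.34 for Rpl10a to 1.26 for Rpl24. The median SE was 0.51. The sign of this small median depended on the processing. It was -0.36 for the 79 genes and -0.09 for all genes with library size alone in place of TMM, -0.11 for the 79 genes with upper-quartile normalization, and -0.31 with limma-voom, where 72 of the 79 values were negative. In none of the 79 genes did the 2 groups avoid overlap in CPM (counts scaled to a common library size after TMM), against 20.7% of all genes.

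The values of single genes show where this spread lay. Rpl41 had 2149, 1161, 1112, 1845 and 932 in control 1 to 5 and 659, 4434, 774, 737 and 768 in ox-LDL 1 to 5 in CPM, with a log2 fold change of 0.03 ± 0.56 (SE; edgeR adjusted p = 0.973). The ox-LDL values lay below every control in 4 libraries and above every control in replicate 2, and control 1 and 4 were the highest of their group. The same order held for most of the family: 75 of the 79 genes had their highest value of all 10 libraries in ox-LDL replicate 2, which was so for 22.2% of all genes, and in 71 genes control 1 was the highest control. The 4 exceptions were Rpl10a, Rpl31, Rpl27a and Rpl39l.

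**Figure D2:**
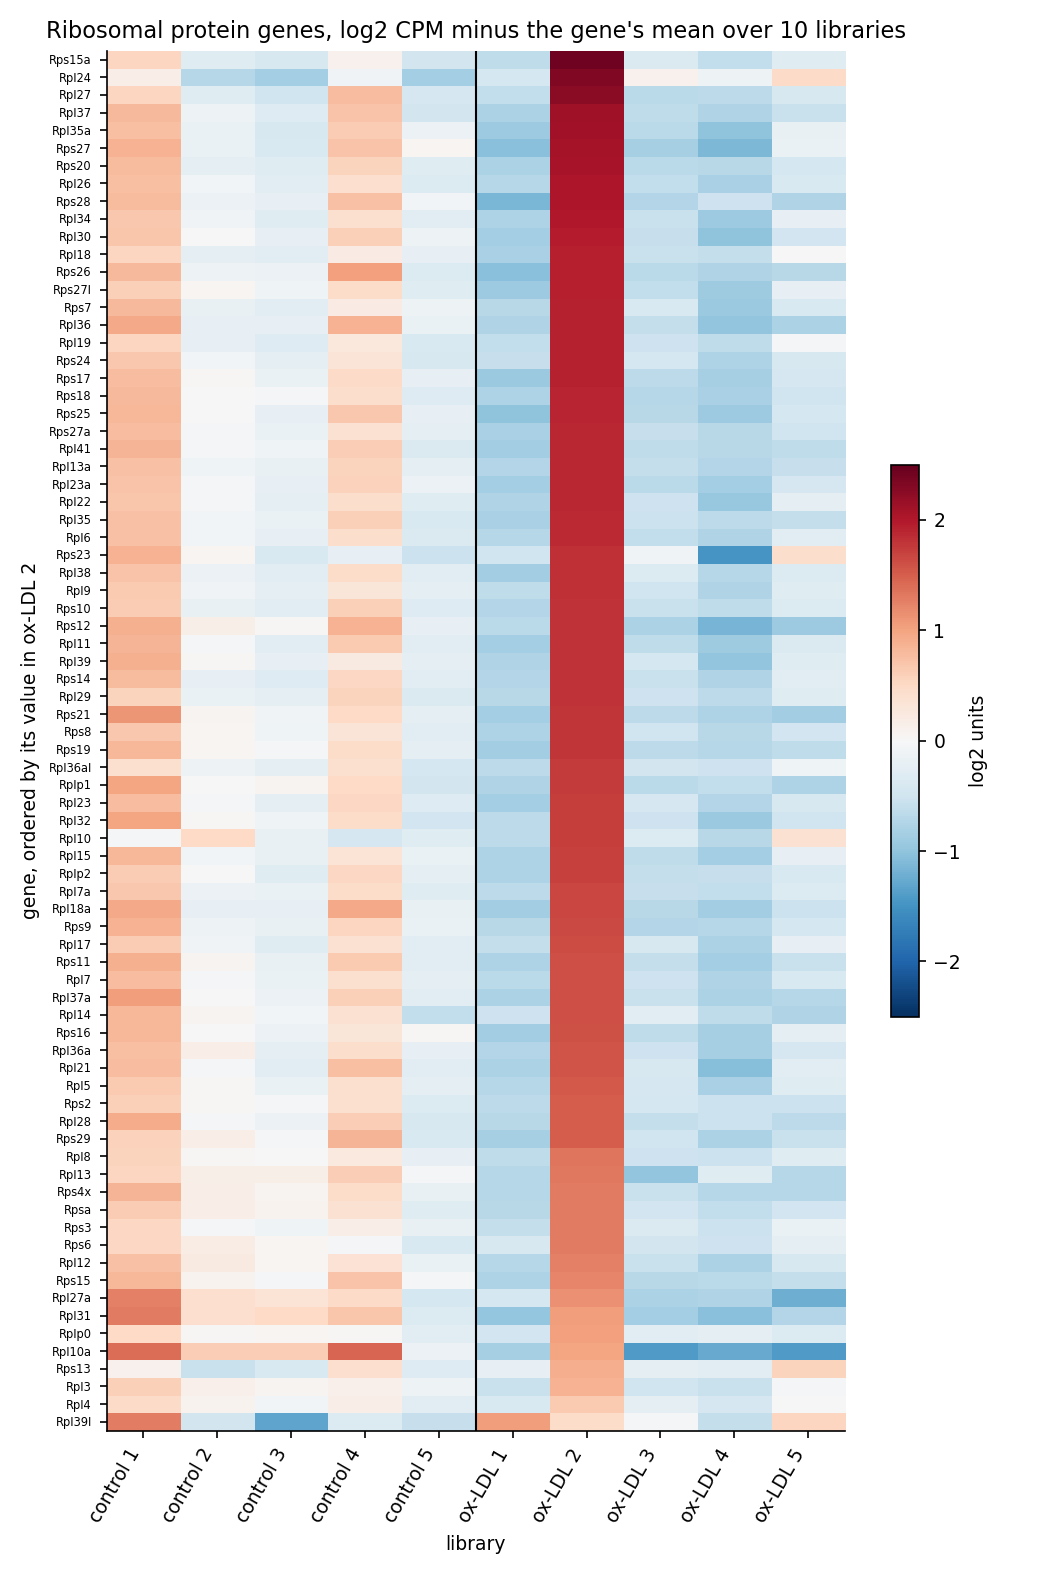
Each row is one of 78 tested ribosomal protein genes and each column a library, and the colour gives the log2 CPM minus the mean of that gene over the 10 libraries. The column of ox-LDL 2 is red for nearly every gene, control 1 and control 4 are pale red, and the other ox-LDL columns are blue, with Rpl10a, Rpl31, Rpl24, Rps13 and Rpl39l departing from that order.

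The stalk proteins, which bring translation factors to the ribosome, were measured well in every library. Rplp0, the base of the stalk and a common reference gene for qPCR, had 2224, 1603, 1627, 1595 and 1285 in control 1 to 5 and 1131, 3199, 1301, 1337 and 1244 in ox-LDL 1 to 5 in CPM (log2 fold change -0.02 ± 0.33, edgeR adjusted p = 0.972). Replicate 2 of ox-LDL lay above all controls, replicates 1 and 5 lay below all of them, and replicates 3 and 4 lay just above control 5. Rplp1 and Rplp2 had log2 fold changes of -0.08 ± 0.54 and 0.07 ± 0.48, neither of which passed. Without ox-LDL replicate 2, Rplp1 fell by 1.05 on the log2 scale (edgeR adjusted p = 0.00914), while Rplp0 at -0.45 ± 0.19 (adjusted p = 0.0784) did not pass.

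The genes of proteins known for roles off the ribosome also had their highest value in ox-LDL replicate 2. Rpl5 and Rpl11, which bind 5S ribosomal RNA and hold back the p53 inhibitor Mdm2 when assembly is disturbed, were measured at similar levels. Rpl11 had 1211, 648, 558, 1056 and 557 in control 1 to 5 and 376, 2352, 436, 363 and 526 in ox-LDL 1 to 5 in CPM, so the 4 ox-LDL libraries other than replicate 2 lay under every control. Its log2 fold change was 0.01 ± 0.54 with all libraries and -0.97 ± 0.28 without ox-LDL replicate 2 (edgeR adjusted p = 0.994 and 0.0158), and Rpl5 gave -0.01 ± 0.45 and -0.77 ± 0.23, so neither passed either time. Rpl13a, the GAIT protein, had 1629, 908, 854, 1440.5 and 826 in control 1 to 5 and 584, 3609, 647, 589 and 652 in ox-LDL 1 to 5, again with replicate 2 above and the other 4 ox-LDL libraries below all controls. Its log2 fold changes were 0.10 ± 0.54 and, without replicate 2, -0.92 ± 0.25 (edgeR adjusted p = 0.912 and 0.0111). Rps19, the gene most often mutated in Diamond-Blackfan anaemia, and Rpsa, also known as the laminin receptor, did pass without that library, at -1.02 ± 0.23 (edgeR adjusted p = 0.00459) and -0.83 ± 0.21 (adjusted p = 0.00871). With all libraries they stood at -0.03 ± 0.52 and -0.18 ± 0.41. Rps3, which also binds NF-kB, had 0.04 with all libraries and -0.54 without replicate 2, and the ubiquitin fusion gene Rps27a had 0.14 and -0.87.

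Of the core proteins of the large subunit, Rpl3 at the peptidyl transferase centre had 1264, 909, 878, 916 and 771 in control 1 to 5 and 567, 1539, 591, 569.6 and 813 in ox-LDL 1 to 5 in CPM. Replicates 1, 3 and 4 of ox-LDL lay below all controls, replicate 5 among them and replicate 2 above. Its log2 fold change was -0.22 ± 0.32 with all libraries and -0.62 ± 0.20 without ox-LDL replicate 2, neither called. Rpl10, which joins the large subunit last, had 108, 156, 96.8, 82.5 and 89.1 in control 1 to 5 and 69.7, 362, 87.2, 67.8 and 143 in ox-LDL 1 to 5 in CPM, with ox-LDL replicate 2 highest, control 2 next and overlap between the groups among the rest. Rpl26, which also binds p53 mRNA, Rpl22, Rpl38, known for its part in translating Hox messages, and Rpl39 had log2 fold changes of 0.25, 0.18, 0.18 and 0.10. Without replicate 2 these were -0.83, -0.79, -0.74 and -0.83, with none called. The small-subunit gene Rps6 had 49.6, 39.7, 35.9, 33.5 and 26.6 in control 1 to 5 and 26.4, 84.9, 25.1, 24.1 and 29.7 in ox-LDL 1 to 5 in CPM, with ox-LDL replicate 2 highest, and a log2 fold change of 0.04 ± 0.35 with all libraries and -0.53 ± 0.18 without replicate 2, also not called.

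Without ox-LDL replicate 2, ribosomal protein genes were lower in ox-LDL almost throughout. Of the 79 genes, 25 fell (edgeR adjusted p below 0.01), against 11.6% of all 12973 genes tested in that fit, and 0 rose, against 13.5%. A negative log2 fold change was found for 76 genes, the median was -0.84 against 0.00 for all genes, and 66 genes were lower at an adjusted p below 0.05, against 21.0% of all genes. In 51 genes the 4 remaining ox-LDL libraries all lay below the 5 controls, against 16.6% of all genes. The calls took in 12 of 48 large-subunit and 13 of 31 small-subunit genes, with medians of -0.83 and -0.87. The largest falls were those of Rpl10a (-2.15), Rpl31 (-1.54), Rpl27a (-1.33), Rps12 (-1.33), Rps21 (-1.19), Rps26 (-1.19) and Rpl36 (-1.18), and the smallest called was that of Rpsa (-0.83). The 3 genes with a positive value were Rpl24 (0.40), Rpl39l (0.36) and Rps13 (0.06), none called. Rps15a, Rpl27, Rps27, Rpl37 and Rps28 moved most when the library was left out, and Rps28, a protein near the exit site of the small subunit, went from 0.06 to a called -1.10. Of the called genes named here, Rpl10a, Rpl31, Rpl27a, Rps12 and Rps28 have an identical intronless match, so their levels are uncertain.

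**Figure D3:**
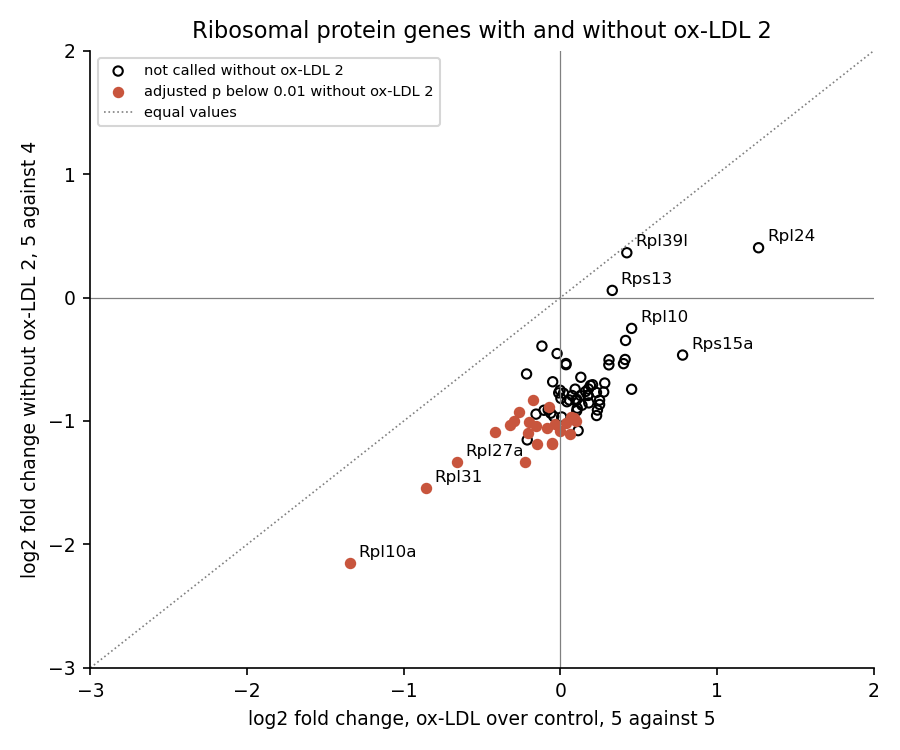
Each point is a tested ribosomal protein gene, with its log2 fold change (ox-LDL over control) in all 10 libraries on the x axis and without ox-LDL 2 on the y axis. Both axes share the same controls and 4 ox-LDL libraries. Every point lies below the dotted line of equal values, with filled points for the 25 genes called without ox-LDL 2, and Rpl10a at the lower left and Rpl24 at the right stand apart.

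Gene length moved with these differences. The median ribosomal protein gene was 580 bases long, and the family made up 34 of the 353 tested genes under 500 bases and 32 of the 1140 between 500 and 1000 bases. In ox-LDL replicate 2 all tested genes under 500 bases stood at a median of 1.75 log2 units above their mean over the 10 libraries. Those over 4000 bases stood at -0.42, and the ribosomal protein genes at 1.78. Deviations from that mean also hold any difference between the groups. Control 1 and control 4 had the same slope to a smaller degree, with 0.65 and 0.51 for genes under 500 bases and 0.75 and 0.46 for the ribosomal protein genes. Genes of 500 to 1000 bases, the class that holds the median ribosomal protein gene, stood lower. They were at 1.375 in ox-LDL replicate 2, 0.44 in control 1 and 0.36 in control 4. The ribosomal protein genes thus lay nearer to the class under 500 bases than to this class in these libraries. Both classes include ribosomal protein genes. Without ox-LDL replicate 2, genes outside the family had a median log2 fold change of -0.78 under 500 bases, -0.53 between 500 and 1000 bases, -0.19 between 1000 and 2000, 0.09 between 2000 and 4000 and 0.33 over 4000 bases, set beside -0.84 for the ribosomal protein genes. The part of gene length in the lower level of the family was not tested.

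**Figure D4:**
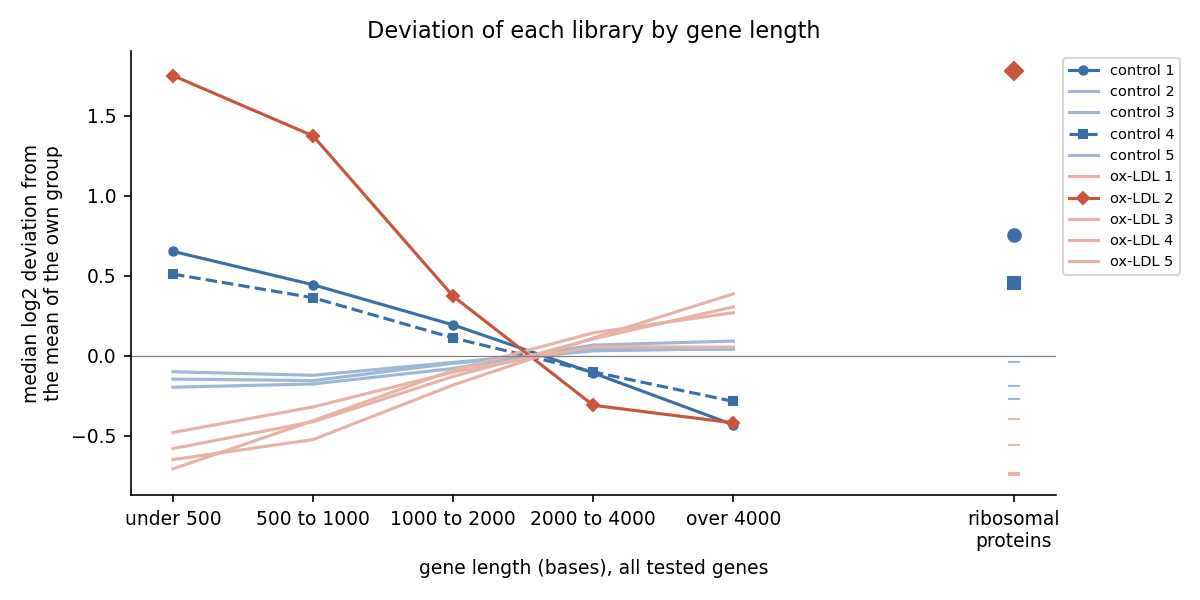
Lines give, for each library, the median log2 deviation of tested genes from their mean over the 10 libraries, in 5 classes of gene length (bases). The marks at the right give the same for the ribosomal protein genes. The label of the y axis names the own group, but the mean is that over all 10 libraries. ox-LDL 2 falls from 1.75 for the shortest genes to -0.42 for the longest, and control 1 and control 4 fall likewise from 0.65 and 0.51, whereas the other 7 libraries end higher than they begin.

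The dependence of expression on gene length was then taken out of each library. It was fitted on deviations from the mean over the 10 libraries, with the family included. A difference between the groups that short genes share was therefore taken out with it. These fits cannot show whether the family as a whole differed between the groups. Few ribosomal protein genes were called in them. The median log2 fold change was -0.09 with all 10 libraries, against 0.04 for all genes, the median SE fell to 0.16, and 3 of the 79 genes were called, against 22.7% of all genes: Rpl24 was higher and Rpl10a and Rpl31 were lower. With the trend removed and ox-LDL replicate 2 left out, 3 of the 79 were lower (Rpl10a, Rpl31 and Rpsa), against 10.7%, and 2 were higher (Rpl24 and Rps13), against 14.5%, with a median of -0.18. Leaving out control 1, control 4 and ox-LDL replicate 2 together, with no correction for length, gave 5 lower genes (Rpl10a, Rpl31, Rps12, Rps15 and Rps21; 6.33%), against 4.93% of all genes, and 0 higher, against 6.51%, so the share of lower genes was near the background. The median was then -0.48, with 76 negative values. The family's median was below that of all genes in these 3 settings, at values from -0.09 to -0.48, and the number of called genes did not exceed 5. These medians are a description only. The fits with the trend removed cannot bear on the family as a whole. The libraries left out of the last setting were those with the highest shares of ribosomal protein counts (7.58%, 6.75% and 9.93%).

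Rpl24, a large-subunit protein that forms a bridge to the small subunit, went against the family. It had 1280.1, 695, 633, 1065 and 627 in control 1 to 5 and 843, 5641, 1231, 1039 and 1578 in ox-LDL 1 to 5 in CPM. Replicates 2 and 5 of ox-LDL lay above all controls, while replicates 1, 3 and 4 lay below control 1, so the groups overlapped. The log2 fold change was 1.26 ± 0.52 with all libraries (edgeR adjusted p = 0.0917), 0.40 ± 0.28 without ox-LDL replicate 2 (adjusted p = 0.255) and 1.16 with the length trend removed (adjusted p = 2.72e-04). Set against the median ribosomal protein gene of the same library, which takes out what the family shares, the log2 ratio of Rpl24 was 0.33, 0.25, 0.18, 0.38 and 0.21 in control 1 to 5 and 1.24, 1.51, 1.53, 1.52 and 1.72 in ox-LDL 1 to 5. Every ox-LDL library, replicate 2 included, lay above every control, with means of 0.27 ± 0.08 in control and 1.50 ± 0.17 in ox-LDL (SD, n = 5), a difference of 1.23. Its locus in mm9 was chr16:55966388-56009026, plus strand, a span that overlaps Pcnp on the other strand. Counting by strand is not given in the sources used here, so reads of the pair cannot be told apart, and Pcnp stood at 55.0 to 65.5 CPM in control and 44.97 to 82.4 in ox-LDL.

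Rpl10a, a protein of the stalk beside the exit site, had 60.1, 35.3, 35.0, 63.1 and 20.7 in control 1 to 5 and 13.0, 45.2, 8.58, 9.62 and 8.54 in ox-LDL 1 to 5 in CPM. All ox-LDL libraries but replicate 2 lay below the lowest control. The log2 fold change was -1.34 ± 0.50 with all libraries (edgeR adjusted p = 0.0661), and Rpl10a fell by 2.15 on the log2 scale without ox-LDL replicate 2 (adjusted p = 3.87e-04) and by 1.43 with the length trend removed (adjusted p = 4.19e-04). Its log2 ratio to the median ribosomal protein gene was -4.08, -4.04, -3.99, -3.70 and -4.71 in control 1 to 5 and -4.78, -5.45, -5.63, -5.23 and -5.80 in ox-LDL 1 to 5. The lowest control, replicate 5, lay just above the highest ox-LDL library, replicate 1, and the means differed by -1.28. Its locus was chr17:28465416-28467977, plus strand in mm9.

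Rpl31, a protein near the tunnel exit, behaved similarly. It had 69.2, 37.9, 39.8, 45.5 and 22.1 in control 1 to 5 and 14.5, 58.1, 15.6, 13.7 and 17.0 in ox-LDL 1 to 5 in CPM, with 4 ox-LDL libraries below all controls and replicate 2 above 4 of them. The log2 fold change was -0.86 ± 0.44 with all libraries (edgeR adjusted p = 0.169), -1.54 ± 0.27 without ox-LDL replicate 2 (adjusted p = 0.0011) and -0.92 with the length trend removed (adjusted p = 0.00509). Its log2 ratio to the median ribosomal protein gene was -4.08 ± 0.33 in control and -4.81 ± 0.18 in ox-LDL (SD, n = 5). The groups did not overlap, but control 5 and ox-LDL 1, the nearest libraries, were at -4.61 and -4.62. The gene lies at chr1:39424696-39428753, plus strand in mm9, and its span overlaps Tbc1d8 on the other strand, which had 7.63 to 15.8 CPM in control and 5.99 to 10.6 in ox-LDL. Rpl10a and Rpl31 are among the genes with an identical intronless match, so their levels, and a difference in them, are uncertain in the way described above. Rpl27a, which shares that property, had 64.0, 35.6, 34.0, 37.3 and 19.8 in control 1 to 5 and 19.6, 58.8, 15.5, 15.9 and 11.4 in ox-LDL 1 to 5 in CPM and fell by 1.33 without ox-LDL replicate 2 (edgeR adjusted p = 0.00408), while its ratio to the median gene overlapped between the groups.

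Over the whole family, the log2 ratio to the median ribosomal protein gene of each library separated the 5 ox-LDL from the 5 control libraries without overlap for 9 of the 79 genes. It was higher in ox-LDL for 6 (7.59%), against 5.17% of all genes, and lower for 3 (3.80%), against 2.59%, so the share was near the background in both directions. Beside Rpl24, the 6 included Rps15a with a difference of 0.50, Rpl19 with 0.34, Rpl36al with 0.30 and Rpl9 with 0.14. Rps15, whose tail reaches the decoding site, was the third of the lower genes beside Rpl10a and Rpl31, with a difference of -0.32. These genes were named after their values were seen, and because they were picked for full separation of the groups, no p is given for them. Rps13, a protein of the small subunit at the interface, had 15.8, 9.89, 11.2, 19.7 and 11.8 in control 1 to 5 and 12.7, 27.5, 12.3, 12.2 and 21.5 in ox-LDL 1 to 5 in CPM, and its ratio was -5.68 ± 0.26 in control and -5.09 ± 0.65 in ox-LDL (SD, n = 5) with ox-LDL replicate 2 the lowest of all libraries and the other 4 ox-LDL libraries above every control.

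**Figure D5:**
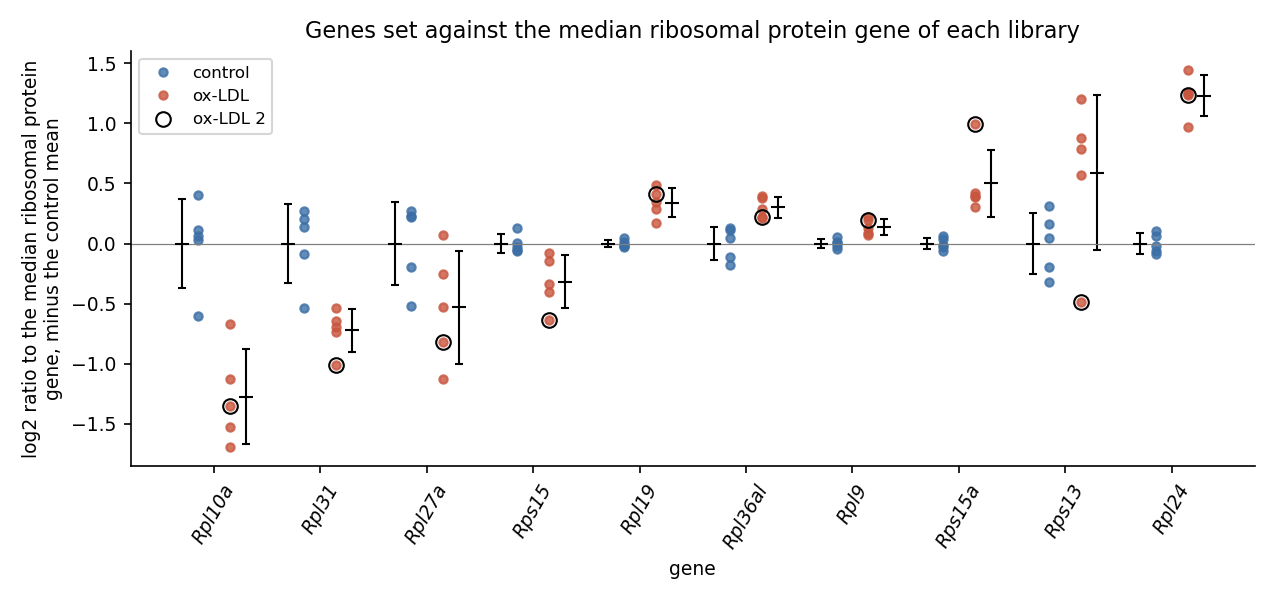
Points give, for 10 named genes, the log2 ratio of CPM to the median ribosomal protein gene of the same library minus the control mean, for 5 control (blue) and 5 ox-LDL libraries (red, replicate 2 ringed), with bars for the mean ± SD of each group. Rpl24 lies highest in ox-LDL and Rpl10a lowest, while Rpl27a and Rps13 overlap between the groups.

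The remaining genes moved together. The log2 level of a gene correlated with the median of the other ribosomal protein genes over the 10 libraries with a median Pearson's r of 0.98, and 71 of the 79 genes had an r above 0.9. These values describe 10 libraries whose shared slope on gene length enters every gene. The lowest were those of Rpl39l (0.24), which had few counts, Rps13 (0.68), Rpl24 (0.71), Rpl10a (0.75), Rpl10 (0.78), Rpl27a (0.83), Rps23 (0.84) and Rpl31 (0.86).

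In the genome the family was scattered. In mm9, 80 of the 82 genes were placed, on 19 chromosomes, and 29 of them held 56 annotated small nucleolar RNA genes within their span. Rpl13a, for example, lies at chr7:52380928-52391787, minus strand, and held Snord32a, Snord33, Snord34 and Snord35a, while Rpsa at chr9:120036884-120041487, plus strand held 3.

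Of 6 ribosomal protein genes and relatives whose symbols do not follow the pattern, none was called with all libraries or without ox-LDL replicate 2. Their median log2 fold change was 0.08 and, without that library, -0.71, with values that included -0.80 for Rps3a1, -0.94 for Rpl22l1, -0.62 for Rack1, which docks kinases on the small subunit, -0.18 for the nucleolar paralog Rpl7l1 and -0.14 for Fau. The 23 translation factors known for TOP messages, such as elongation factor Eef1a1, gave 0 calls with a median of -0.01, and 0 higher and 1 lower with a median of -0.28 without ox-LDL replicate 2. Of the 78 mitochondrial ribosomal proteins, 2 were higher and 0 lower, against 9.4% and 5.35% of all genes, with a median of 0.21. Without that library 2 were higher, against 13.5% of all genes, and 14 lower, against 11.6%, with a median of -0.34. The 2 higher with all libraries were Mrpl38 (from 17.3 ± 2.13 CPM in control to 35.5 ± 7.57 CPM in ox-LDL, SD, n = 5) and Mrps18b (from 23.7 ± 2.18 CPM in control to 44.1 ± 8.53 CPM in ox-LDL). Of 93 tested subunits of oxidative phosphorylation, another set of short genes (median 549 bases), 0 were called with all libraries, and 1 was higher and 24 lower of 94 without ox-LDL replicate 2, against the same shares of all genes, with medians of 0.26 and -0.59.

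Some genes that load and assemble ribosomes were called with all 10 libraries. Of 20 initiation factors 5 rose and 0 fell, against 9.4% and 5.35% of all genes. Without ox-LDL replicate 2 the numbers were again 5 and 0, against 13.5% and 11.6%. Eif6, which keeps the new large subunit from joining too early, went from 46.9 ± 5.47 CPM in control to 142 ± 52.4 CPM in ox-LDL (SD, n = 5), a log2 fold change of 1.60 ± 0.26 (edgeR adjusted p = 9.90e-04). Eif4e, which binds the messenger's cap, went from 119 ± 7.86 CPM in control to 254 ± 78.2 CPM in ox-LDL, a log2 fold change of 1.09 ± 0.23 (edgeR adjusted p = 0.00478), and the scaffold gene Eif4g3 rose by 0.98. Of 46 genes of ribosomal RNA processing and assembly 2 rose and 0 fell, against 9.4% and 5.35% of all genes. The 2 were the small-subunit factors Noc4l (1.76) and Nop14 (0.85), and the median of the list was 0.37. Without ox-LDL replicate 2, 5 were higher, with Utp4 (0.79), Utp15 (0.70) and Ddx21 (0.70) added, and 2 were lower, Dkc1 (-1.07) and Nop10 (-1.27), and the median was 0.25. Of 15 genes of RNA polymerase I transcription only Ubtf, its upstream binding factor, was called, going from 41.5 ± 5.55 CPM in control to 18.0 ± 4.24 CPM in ox-LDL (log2 fold change -1.21 ± 0.19, edgeR adjusted p = 7.14e-04), with 0 higher and 1 lower also without ox-LDL replicate 2. None of the 8 chaperones of ribosomal proteins was called in either fit, and their median was 0.07.

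Of 21 tested genes of the mTOR pathway and of TOP regulation, 2 rose and 2 fell, against 9.4% and 5.35% of all genes. Without ox-LDL replicate 2 the shares of all genes were 13.5% higher and 11.6% lower. The same shares stand beside the counts of the lists that follow. Larp1, which binds TOP messages, rose from 38.2 ± 12.8 CPM in control to 105 ± 34.5 CPM in ox-LDL (log2 fold change 1.45 ± 0.29, edgeR adjusted p = 0.0035), and Ddit4, an inhibitor of mTOR complex 1 induced by stress, rose by 2.20 from under 1 CPM. Deptor, a part of the mTOR complexes that inhibits them, fell by 2.37 and the cap-binding inhibitor Eif4ebp2 fell by 0.96 on the log2 scale. The counts were 3 higher, with Rictor (0.94) added, and 2 lower without ox-LDL replicate 2. Of 9 tested genes of the Myc network, Mxd4, a repressor that competes with Myc for Max, was called with all libraries, with a log2 fold change of -2.78 ± 0.42 (edgeR adjusted p = 5.44e-04). Mga (0.74) was also called, as higher, of 10 tested without ox-LDL replicate 2. Mycl (4.11) was called there too, but it lay at or below 0.332 CPM in every control. It met the count filter only through the ox-LDL libraries, so its value near the floor is not read as a result. Of 17 genes of ribosome quality control and turnover 4 rose and 0 fell: Nufip1, a receptor for ribosome autophagy (1.28), Pelo, which rescues stalled ribosomes (1.23), Ascc2, of the complex that splits collided ones (1.03), and Rnf14 (0.73). The count was 6 without ox-LDL replicate 2, with Ascc3 (0.77) and Zfp598 (0.94) added. Of the 6 genes of the GAIT complex the kinase Dapk3 was called with all libraries, at 0.91 ± 0.17 (edgeR adjusted p = 0.00208), with 1.01 for Eprs, 0.88 for Dapk1, 0.74 for Gapdh and 0.08 for Syncrip not past the threshold. Eprs, a tRNA synthetase, was called without ox-LDL replicate 2 at 1.12 ± 0.25 (edgeR adjusted p = 0.00426) and with the length trend removed at 0.82 (adjusted p = 0.0085). Among 20 genes used as qPCR references, which include 7 ribosomal protein genes, Tubb5 rose (1.09) and Gusb fell (-1.24) with all libraries. With ox-LDL replicate 2 left out, 1 was higher and 4 were lower, with Rps18 and Rps29 among the lower ones, and the median of the list went from -0.03 to -0.48.

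Markers of other cells differed between the groups beside these results. Of 7 mesothelial and stromal genes 3 were tested and all 3 were higher in ox-LDL, and the summed level of the list was 12.7 to 44.2 CPM in control against 80.4 to 144 CPM in ox-LDL. Of the 7 measured neutrophil genes 2 were tested. S100a8 was higher, while the other had a negative log2 fold change and was not called. The sum of the list was 18.1 to 37.4 CPM in control against 20.4 to 156 CPM in ox-LDL, so the groups overlapped. The 6 eosinophil and mast cell genes, of which 2 were tested, summed to 2.52 to 8.19 CPM in control against 0.536 to 2.51 CPM in ox-LDL. Siglecf was called lower, but with a list sum this low its level in ox-LDL lies near the floor, so the call is not read as a result. The sums of the 5 measured B cell genes (0.984 to 2.68 and 1.02 to 2.96 CPM), the 5 T cell genes (0.498 to 0.773 and 0.927 to 2.57 CPM) and the 4 erythroid genes (up to 0.174 and 0.257 CPM) were low in both groups. Without ox-LDL replicate 2 the number of called genes in each list of this paragraph was the same. The shares of all genes were 9.4% higher and 5.35% lower, and 13.5% and 11.6% without that library. No listed marker with a measurement was at 0 in all 10 libraries, and the part of these cells in the ribosomal protein values was not tested.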

How the data were processed

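RNA of 5 control and 5 ox-LDL cultures was sequenced in bulk on the BGISEQ-500 platform, 1 library per replicate. Per the submitters' processing notes, the tools were FastQC, HISAT2 (version 2.0.5) for alignment to mm9, StringTie (version 1.3.3.13) and SAMtools (version 1.4). The authors deposited estimated counts in a gene table, not normalized, of which 13.6% of values were not whole, and a second value per gene that is scaled by length. The unit of the latter is not named. Dividing counts by it and by the library total gave a near-constant length per gene (median CV 1.14% over 5334 genes), so these deposited values were treated as FPKM, and the lengths used here came from this division. The counting step, its use of strand and its handling of reads that fit several places are not given in the sources used here.

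The table held 39488 rows, of which 9788 circular RNAs were left out and 23382 were NCBI genes, 22818 of them paired with a symbol through a RefSeq table. Gene lists for translation, ribosome assembly, mTOR and Myc signalling, turnover, GAIT, reference genes and cell markers were written by hand. The ribosomal protein genes and the lists were chosen with earlier results of these data known. Rps4l was left out as a pseudogene. Counts were rounded, filtered by edgeR's filterByExpr, normalized by TMM and tested with edgeR 4.0.16 (R 4.3.3) by its quasi-likelihood test, adjusted by Benjamini-Hochberg over all genes tested, with an adjusted p below 0.01 as the call. Errors of fold changes are standard errors (SE). On simulated data with 12654 genes it recovered 85 of 90 genes changed by 1 log2 unit and 109 of 110 changed by 2, with 1 false call. The simulated replicates varied less than these libraries, whose biological coefficient of variation was 37.3%. They also held no library like ox-LDL replicate 2 and no length trend. The simulation therefore does not show how often such changes would be found here. The length trend was a lowess curve (span 0.3) of each library's log2 deviation from the mean over the 10 libraries on log length, entered as offsets. Intronless copies were sought by BLAST of coding sequences against mm9 at 90% identity and cover, with a gene's own locus not left out.

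Named genes were those with known further roles, paralogs ending in l with their parents, the 3 highest and 3 lowest by FPKM, the 5 that moved most without ox-LDL replicate 2, and called genes of the lists. Rpl10a, Rpl31, Rpl27a, Rpl24, Rps13 and the genes separated by their ratio to the median gene were named after their values were seen, as were the fit that combined length removal with leaving out ox-LDL replicate 2 and the ratio itself. The alternatives were DESeq2 1.42.0, limma-voom and limma 3.58.1 on log2(FPKM + 1), other normalizations, filters and thresholds, the replicate number as a block, and each library left out. Samples were grouped by their labels. Values of some single genes are not reported here. p-values set a difference between the groups against the spread between these cultures.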

Additional observations from a re-analysis of the deposited data

Results flagged for a closer look

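In each group of 5 libraries, the gap between the most extreme library and its nearest neighbour was divided by the range of the group and set against Dixon's 95% limit of 0.71. Of 74 groups examined, over the 2 shares of counts and the named ribosomal protein genes, 36 were past the limit, where chance gives about 1 in 20, or 3.7. In 35 of them the extreme library was ox-LDL replicate 2, which was the highest. That library was set apart from the outset because short genes are high in it, and the genes move together, so these cases are a description and not separate observations to hold against the chance count.

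The share of counts on ribosomal protein genes in ox-LDL had a gap of 0.932 of the range, and the share on mitochondrial ribosomal proteins 0.841. Among single genes in ox-LDL, the gap in CPM as a part of the range was past the limit for Rpl10 (0.745), Rpl10a (0.880), Rpl11 (0.918), Rpl13a (0.977), Rpl22 (0.893), Rpl23a (0.939), Rpl24 (0.847), Rpl26 (0.942), Rpl27 (0.969), Rpl27a (0.828), Rpl3 (0.748), Rpl31 (0.926), Rpl36a (0.923), Rpl36al (0.895), Rpl37 (0.973), Rpl38 (0.920), Rpl39 (0.897), Rpl41 (0.969), Rpl5 (0.897), Rplp0 (0.90), Rplp1 (0.976), Rplp2 (0.933), Rps12 (0.941), Rps15 (0.958), Rps15a (0.966), Rps19 (0.966), Rps27 (0.887), Rps27a (0.957), Rps27l (0.899), Rps28 (0.931), Rps3 (0.876), Rps6 (0.908) and Rpsa (0.947).

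The remaining case was Rpl39l in control, where control 1 was the highest with a gap of 0.813, at 1.55 CPM against 0.214 to 0.464 CPM in the others.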

How the results depend on the processing

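The count of lower ribosomal protein genes, 0 with all libraries, changed in 8 of its 30 alternatives. Leaving out 1 library at a time gave 0 to 25 lower genes and 0 higher ones, where ox-LDL replicate 2 alone gave the 25, and the median log2 fold change of the family then ran from -0.84 without that library to 0.24 without ox-LDL replicate 5. The log2 fold changes of Rpl23a, Rpl41 and Rps28 turned from just above 0 to called values of -0.97, -1.02 and -1.10 without it, and reached 0.25, 0.24 and 0.29 when other libraries were left out. Leaving out ox-LDL replicate 2 also moved the medians of the mitochondrial ribosomal proteins to -0.34, of the oxidative phosphorylation subunits to -0.59 and of RNA polymerase I genes to -0.095, and the genes without overlap from 0 to 51.

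Lower ribosomal protein genes were 5 without control 1, control 4 and ox-LDL replicate 2 together, 2 with limma on log2(FPKM + 1) and on log2(FPKM + 0.1), 1 with library size alone and 2 with the length trend removed, which also gave 1 higher gene and 3 without overlap. With the trend removed and ox-LDL replicate 2 left out there were 3 lower and 2 higher genes, and the ratio to the median gene gave 9 without overlap. The pyrimidine run rose from 14 to 29 genes when it could start within 5 bases.

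Over all genes, 1189 were higher and 677 lower. DESeq2 gave 1922 and 1331, an adjusted p below 0.05 gave 2045 and 1320, the trend removed gave 1646 and 1224, and the trend removed without ox-LDL replicate 2 gave 1876 and 1387. Library size alone gave 704 higher genes, and limma gave 555 on log2(FPKM + 1), 543 on log2(FPKM + 0.1) and 472 with no filter on FPKM. Leaving out 1 library gave 826 to 1755 higher and 436 to 1502 lower genes. Scaling by library size alone moved the median of all genes from 0.10 to -0.09 and that of the ribosomal protein genes to -0.36, with 73 of 79 negative, and the median of the family was -0.31 with limma-voom and -0.47 with limma on log2(FPKM + 1), which placed 750 genes lower against 555 higher and changes test, filter and scale together. The cause was not tested.

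Control and ox-LDL libraries share replicate numbers, but the deviations of same-numbered libraries correlated at 0.02, -0.27, 0.44, -0.28 and 0.41, and 1 of 5 pairs correlated best with its own number, so the numbers were not taken as pairs. With the replicate block, 0 ribosomal protein genes were called in either direction, with a median of -0.33, and 885 genes were higher and 549 lower overall. With the replicate block and the length trend removed together, 1 ribosomal protein gene was higher, 3 were lower and 1234 of all genes were lower. Depth was even and high for this family, so counting error limited only Rpl39l and the 3 untested genes.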
